A study of Rattus norvegicus with 9 samples.

Results

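The miR-34 and miR-449 family was described in small RNA libraries of rat striatum, the forebrain nucleus that receives most input to the basal ganglia and in which manganese is known to accumulate. Its 8 members were chosen by name, as mature arms of the Mir34a, Mir34b, Mir34c, Mir449a and Mir449c hairpins, and all 8 were present among 764 miRNA entries and 1759 small RNA entries in all. Rats of either sex entered their groups at 8 weeks of age and were gavaged daily, 6 days per week over 8 weeks. MMT rats were given methylcyclopentadienyl manganese tricarbonyl, a fuel additive, at 4 mg/kg in corn oil, which holds about 1 mg/kg of manganese. MnCl2 rats were given manganese chloride tetrahydrate at 200 mg/kg in saline (10 ml/kg), and control rats corn oil alone (1 ml/kg). The series describes 18 rats (9 males, 9 females) and holds 9 libraries, 3 for every group. Whether every rat entered a library is unstated. Strain, the sex of the rats in a library and any pooling of rats are unstated, and all p-values rest on variation among these 9 libraries, some of which may be technical. Since MnCl2 was given in another vehicle than MMT and corn oil alone, compound and vehicle cannot be told apart in either comparison of MnCl2, and MMT and MnCl2 rats differed in dose as well.

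A miRNA guides Argonaute proteins to messenger RNAs that pair with its seed, bases 2 to 8 of the mature strand. Each hairpin yields a 5p and a 3p arm, of which one is usually kept as the guide. miR-34a is a direct transcriptional target of p53, the damage-responsive tumour suppressor, and is known in neurons and glia for limiting proliferation and survival genes. miR-34b, miR-34c and the miR-449 miRNAs are best known from epithelia with motile cilia, where they act together in the formation of multiciliated cells. In the brain such cells line the ventricles as ependyma, and the choroid plexus epithelium, continuous with it, is ciliated too.

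The family is defined by its seed, so the mature sequences of all 8 members are shown 5′ to 3′ with bases 2 to 8 in capitals. They come from RefSeq (GRCr8 table), where all 8 matched by name, and are identical to the deposited ones. The prefix rno, for rat, is left out below.
rno-miR-34a-5p: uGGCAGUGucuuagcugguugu
rno-miR-34b-5p: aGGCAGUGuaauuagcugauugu
rno-miR-34c-5p: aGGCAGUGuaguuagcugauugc
rno-miR-449a-5p: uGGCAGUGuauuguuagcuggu
rno-miR-449c-5p: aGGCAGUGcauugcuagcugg
rno-miR-34a-3p: aAUCAGCAaguauacugcccua
rno-miR-34b-3p: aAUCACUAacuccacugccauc
rno-miR-34c-3p: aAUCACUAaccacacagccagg

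The 5 members from the 5p arm share the seed GGCAGUG, and no other of the 764 miRNA entries has it. miR-34b-3p and miR-34c-3p share AUCACUA, while AUCAGCA was found in miR-34a-3p alone. The closest pair is miR-34b-5p and miR-34c-5p, which differ at 2 of 23 positions counted from the 5′ end (A11G and U23C, miR-34b-5p to miR-34c-5p). miR-449a-5p and miR-449c-5p differ at 3 of 21 compared positions, and every other pair of the same arm differs at 5 or more. No entry of any class shared 16 bases with a member on either strand. The mismatches allowed in the authors' alignment are unstated, so reads may have passed between miR-34b-5p and miR-34c-5p.

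The 2 closest members come from 1 cluster. Mir34b (GRCr8 chr8:60306609-60306692, minus strand) and Mir34c (chr8:60306091-60306167, minus strand) lie next to each other in the RefSeq table, between Hoatz, a gene of motile cilia, and Btg4. Their hairpins are shown with both mature arms in capitals, because the balance of the arms is compared between libraries.
Mir34b: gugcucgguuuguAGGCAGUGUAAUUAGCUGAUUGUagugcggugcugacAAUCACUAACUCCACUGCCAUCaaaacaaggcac
Mir34c: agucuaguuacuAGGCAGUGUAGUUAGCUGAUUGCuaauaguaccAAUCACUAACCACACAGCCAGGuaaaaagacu

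Mir449c and Mir449a are neighbours on chromosome 2, with Mcidas, which encodes the multiciliation regulator multicilin, close by. Mir34a lies alone among the members, on chromosome 5.

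Library totals ran from 583045 counts in control 3 to 2012769 in control 1, and 1113 entries, the 8 members among them, passed a filter on low counts. Control 1 stood apart as the deepest library, and counts of scarce and abundant miRNAs differed unlike between it and control 3. This pair cannot tell depth from other differences between the libraries. Between control 1 and control 3 the totals differed by a ratio of 3.45, whereas the median ratio of counts was 0.6 over 215 miRNAs at a mean of 20 CPM or less and 3.93 over 74 miRNAs above 1000 CPM (CPM, counts relative to the TMM-scaled library total). The neuronal markers miR-124-3p, miR-128-3p, miR-9a-5p, miR-138-5p and miR-137-3p were present in every library, with summed levels of 46748 to 62356 CPM in MMT, 48522 to 61945 CPM in MnCl2 and 46456 to 63560 CPM in control libraries. Of 8 choroid plexus markers 7 were in the files, and their sum ran from 456.1 to 3838 CPM in MMT, from 449.9 to 2320 CPM in MnCl2 and from 481.9 to 1967 CPM in control libraries, with none at 0. In bulk tissue, fewer cells of a type and less RNA per cell cannot be told apart.

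miR-34a-5p carried most of the family. It took 77.7% to 90.7% of the members' counts in MMT, 73.5% to 85.1% in MnCl2 and 73.5% to 94.4% in control libraries, and ranked 56 of 764 miRNAs by mean level. All 8 members together made up 0.309% to 0.38% of miRNA counts in MMT, 0.25% to 0.369% in MnCl2 and 0.306% to 0.393% in control libraries. By mean level over the 9 libraries the order was rno-miR-34a-5p (1700.5 CPM), rno-miR-34c-5p (228 CPM), rno-miR-34b-5p (58.4 CPM), rno-miR-449a-5p (28.8 CPM), rno-miR-34b-3p (17.5 CPM), rno-miR-449c-5p (15.8 CPM), rno-miR-34a-3p (12.4 CPM) and rno-miR-34c-3p (10.1 CPM). miR-34a-5p lay above miR-34c-5p, and miR-34c-5p above miR-34b-5p, in every library. The ranges of the other neighbours in this order overlapped. The mature strands are 21 to 23 nucleotides long, so length hardly enters these level comparisons, while preferences of adapter ligation between sequences may.

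**Figure D1:**
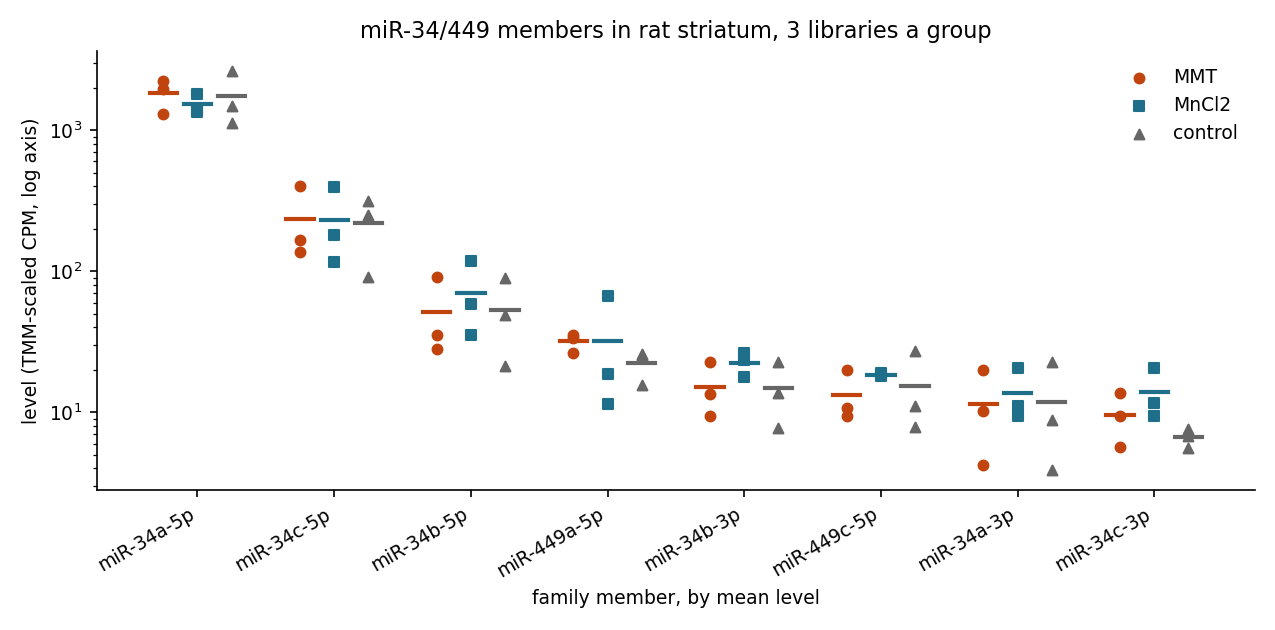
Levels of the 8 family members (TMM-scaled CPM, log axis) in MMT, MnCl2 and control libraries, 1 point a library and 1 bar for each group mean (n = 3). miR-34a-5p lies above 1000 CPM in all 9 libraries, and the points of the 3 groups overlap for most members.

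miR-34a-5p, the p53-responsive guide strand, was at 2232, 1297 and 1963 CPM in MMT libraries, at 1814, 1399 and 1349 CPM in MnCl2 libraries, and at 2639, 1484 and 1127 CPM in control libraries. The control group alone held both the highest and the lowest library, so the 3 groups overlapped. Means were 1831 ± 481 CPM in MMT, 1521 ± 255 CPM in MnCl2 and 1750.1 ± 790.1 CPM in control libraries (SD, n = 3 each). With edgeR's quasi-likelihood test across all entries, the log2 fold change was 0.06 for MMT against control (SE 0.29, 95% interval -0.58 to 0.71, adjusted p = 1). For MnCl2 against control it was -0.21 (SE 0.29, interval -0.85 to 0.44, edgeR adjusted p = 0.876), and for MMT against MnCl2 0.27 (SE 0.29, interval -0.38 to 0.92, edgeR adjusted p = 0.981). Control 1 decided the direction of MnCl2 against control, which was 0.22 without it (edgeR adjusted p = 0.984). For MMT against control the value was 0.50 without control 1 (edgeR adjusted p = 0.916), and it turned to -0.08 without control 2, -0.17 without control 3 and -0.11 without MMT 1.

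Over the 9 libraries the level of miR-34a-5p tended to rise with the total count, but not within every group. In control libraries levels and totals had the same order. MnCl2 1 had the lowest total of its group (753383 counts) and its highest level (1814 CPM). MMT 3 had a higher total than MMT 1 (1543987 against 1227930 counts) at a lower level (1963 against 2232 CPM). The share of abundant miRNAs that rise in this way is not given here. Between control 1 and control 3 the counts of miR-34a-5p differed by a ratio of 6.4, against a median of 3.93 over 74 miRNAs above 1000 CPM. Over the 9 libraries its log2 level and the log2 total had a Pearson r of 0.846 (exact permutation p = 0.00399, adjusted over the 8 members 0.0106) and a Spearman rho of 0.867 (exact permutation p = 0.00451, adjusted 0.0162). When control 1 and control 3, at the ends of the range of totals, were set aside, r was 0.602 over 7 libraries. With the total count as a covariate the standard error of the log2 fold change was 0.17 for MMT against control, with a value of 0.08 (edgeR adjusted p = 0.991), and for MnCl2 against control the value turned to 0.06 (SE 0.17, edgeR adjusted p = 0.909). For MMT against MnCl2 it was 0.02 in place of 0.27 (SE 0.17, edgeR adjusted p = 0.989). Its spread within groups was an SD of 0.45 on the log2 scale, the rank 2 of 74 miRNAs above 1000 CPM, whose median SD was 0.28.

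miR-34c-5p, the main strand of the cluster on chromosome 8, was at 136, 166 and 403 CPM in MMT libraries, at 393, 116 and 181 CPM in MnCl2 libraries, and at 91.3, 316 and 251 CPM in control libraries. Each group held low and high libraries, and the highest library, MMT 3, stood 4.41-fold above the lowest, control 1. The group means were 235 ± 146 CPM in MMT, 229.9 ± 145 CPM in MnCl2 and 219 ± 116 CPM in control libraries (SD, n = 3 each). The log2 fold change was 0.12 for MMT against control (SE 0.59, 95% interval -1.22 to 1.46, edgeR adjusted p = 1) and 0.07 for MnCl2 against control (SE 0.60, interval -1.28 to 1.42, edgeR adjusted p = 0.993). The within-group SD of 0.88 on the log2 scale was the rank 4 among miRNAs at 100 to 1000 CPM, where the median was 0.28.

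Its cluster partner miR-34b-5p followed the same pattern at a lower level. It was at 28.1, 35.2 and 91 CPM in MMT libraries, at 117.5, 35.2 and 58.8 CPM in MnCl2 libraries, and at 21.1, 90 and 48.7 CPM in control libraries. The highest library within each group was MMT 3, MnCl2 1 and control 2 for both strands. The log2 fold change was -0.02 for MMT against control (SE 0.61, 95% interval -1.36 to 1.32, edgeR adjusted p = 1) and 0.41 for MnCl2 against control (SE 0.61, interval -0.93 to 1.75, edgeR adjusted p = 0.888). For MMT against MnCl2 it was -0.42 (SE 0.60, edgeR adjusted p = 0.981).

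The miRNAs outside the family most like miR-34c-5p across the 9 libraries were 3 miRNAs of the choroid plexus list. Among 614 other miRNAs, Pearson's r of log2 levels was highest for miR-1298 (0.981; Spearman rho 1) and miR-448-3p (0.969; rho 0.983), both known in human from introns of the serotonin receptor gene HTR2C. Next came the partner strand miR-34b-5p (0.945; rho 0.917), and after it miR-204-5p, a miRNA abundant in choroid plexus and retinal pigment epithelium (0.884; rho 0.85). These values are descriptions without a p, since the partners were picked as the closest, and the points share their libraries and depths. Without MnCl2 1 and MMT 3, the libraries farthest from the median of miR-34c-5p, r with miR-1298 was 0.97, and within groups (deviations from group means) it was 0.986.

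miR-1298 was at 69.9, 95.4 and 1196 CPM in MMT libraries, at 698 CPM, 67.5 CPM and 111 CPM in MnCl2 libraries, and at 41.7, 525 and 391 CPM in control libraries. The 9 libraries fell into 5 with low and 4 with high miR-1298, and miR-34c-5p put all 9 in the same order. The span differed between them. From the lowest to the highest library miR-34c-5p rose 4.41-fold, while miR-1298 rose 28.7-fold, miR-448-3p 11.3-fold and miR-204-5p 9.57-fold. The ratio of miR-34c-5p to miR-1298 counts was 1.95, 1.74 and 0.337 in MMT libraries, 0.562, 1.72 and 1.62 in MnCl2 libraries, and 2.19, 0.601 and 0.642 in control libraries, so it was lowest where miR-1298 was high. How far tissue of the choroid plexus entered the libraries, and its part in these levels, was not tested. The scarcer choroid plexus markers did not share this pattern to the same degree, with r to miR-34c-5p of 0.641 for miR-1912-3p, 0.393 for miR-211-5p, 0.311 for miR-1912-5p and 0.0699 for miR-204-3p.

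**Figure D2:**
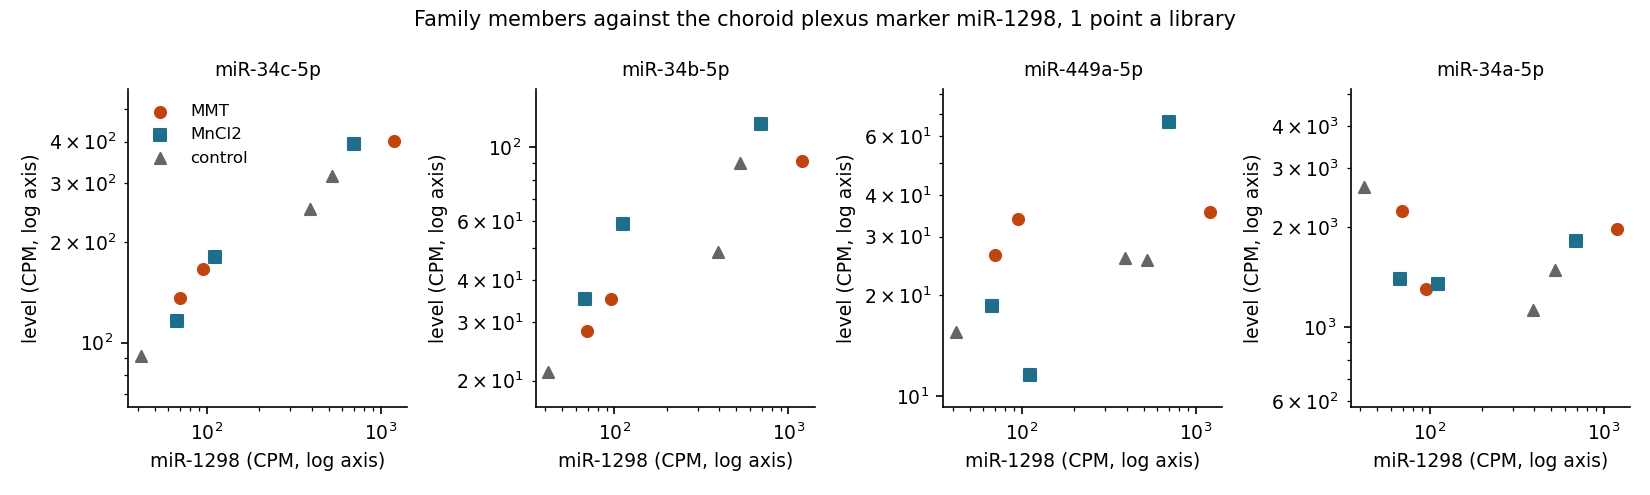
Levels of 4 family members (CPM, log axis) against miR-1298 in the same library (CPM, log axis), 1 point for each of 9 libraries in MMT, MnCl2 and control groups. miR-34c-5p and miR-34b-5p climb with miR-1298, with r of 0.981 and 0.907, whereas r is -0.18 for miR-34a-5p, or 0.63 without MMT 1 and control 1.

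For miR-34b-5p the closest miRNAs outside the family were miR-19a-3p of the miR-17/92 cluster (r 0.911), miR-1298 (r 0.907) and miR-135a-5p (r 0.886). With the summed choroid plexus markers as a covariate, a setting chosen after the data were seen, the standard errors of both strands fell. For miR-34c-5p the SE was 0.20 in place of 0.59 for MMT against control, at a log2 difference of 0.24 (edgeR adjusted p = 1). For MnCl2 against control the SE was 0.19 in place of 0.60, at a log2 difference of 0.25 (edgeR adjusted p = 0.863). For miR-34b-5p the values were 0.09 for MMT against control (SE 0.30, edgeR adjusted p = 1) and 0.63 for MnCl2 against control (SE 0.30, edgeR adjusted p = 0.817). No group difference of either strand passed with this covariate.

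miR-34a-5p kept other company. The closest miRNAs were miR-23b-3p (r 0.939), let-7a-5p (r 0.891) and miR-3596a (r 0.884), and without control 1 and MMT 1 these fell to 0.849, 0.671 and 0.646. Its r was -0.23 with miR-34c-5p and -0.25 with miR-34b-5p over all 9 libraries, but 0.643 and 0.746 without control 1 and MMT 1. With miR-34c-5p it was -0.65 without MnCl2 1 and MMT 3, the libraries farthest from the median of miR-34c-5p. With miR-34b-5p it was -0.0072 without control 1 and MnCl2 1, the farthest for that strand. Size and sign of r to the cluster thus depended on which libraries were left out. The ratio of miR-34a-5p to miR-34c-5p counts ran from 4.87 to 16.4 in MMT, from 4.62 to 12 in MnCl2 and from 4.49 to 28.9 in control libraries.

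miR-449a-5p, the more abundant arm of Mir449a at the cilia-linked locus on chromosome 2, was at 26.4, 33.9 and 35.5 CPM in MMT libraries, at 66.4, 18.6 and 11.5 CPM in MnCl2 libraries, and at 15.6, 25.4 and 25.9 CPM in control libraries. All MMT libraries lay above all control libraries, by a margin of 26.4 to 25.9 CPM, and MnCl2 libraries lay on both sides. The counts behind these levels were 31, 27 and 50 in MMT, 48, 19 and 11 in MnCl2, and 28, 26 and 17 in control libraries. The log2 fold change of MMT against control was 0.54 (SE 0.57, 95% interval -0.73 to 1.80, edgeR adjusted p = 1), and that of MnCl2 against control 0.52 (SE 0.58, interval -0.76 to 1.80, edgeR adjusted p = 0.843). Without MnCl2 1, the highest library, the second value turned to -0.55.

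The miRNAs closest to miR-449a-5p were miR-181c-5p (r 0.957), miR-664-3p (r 0.86) and miR-497-5p (r 0.831), which without MnCl2 3 and MnCl2 1 stood at 0.855, 0.706 and 0.442. Its r with miR-34c-5p was 0.666, rank 19 of 614, and with miR-1298 0.634. MnCl2 1 was also the library highest in the vascular markers, at 27900 CPM for the sum of miR-126a-3p, miR-143-3p and miR-145-5p, with 15568 and 14055 CPM in the other two MnCl2 libraries, 14388 to 16771 CPM in MMT and 12951 to 18271 CPM in control libraries. Of these vascular markers miR-143-3p was at 17934 CPM in MnCl2 1 and 9215 CPM in control 1, the next highest library. For miR-145-5p these values were 1329 and 703 CPM. miR-126a-3p was hardly higher in MnCl2 1, at 8637 CPM against 8353 CPM in control 1. MnCl2 1 also had the highest sum of 5 epithelial markers, at 174 CPM, with 170.2 and 70.3 CPM in the other MnCl2 libraries. MMT libraries held 58 to 125.6 CPM and control libraries 55.1 to 94.3 CPM. Within this list miR-141-3p and miR-200b-3p were highest in MnCl2 1. miR-200a-3p and miR-429 were highest in MnCl2 2, at 61.6 and 59.7 CPM against 53.9 CPM each in MnCl2 1, and miR-200c-3p in control 3. The sum of 3 blood markers was highest in MnCl2 1 too, at 127 CPM with 54.8 and 65.1 CPM in the other MnCl2 libraries. This sum was 46.9 to 66.1 CPM in MMT and 46.2 to 82.1 CPM in control libraries. Of these markers miR-451-5p and miR-144-3p were highest in MnCl2 1, while miR-486 was at 0 in it. For MnCl2 against control the 4 epithelial markers that passed the filter had log2 fold changes above 0 (median 1.17) and 0 were called. The part of these markers in the level of miR-449a-5p was not tested. The neighbour miR-449c-5p was at 9.38, 20.1 and 10.7 CPM in MMT, at 18, 18.6 and 18.9 CPM in MnCl2, and at 11.1, 7.83 and 27.4 CPM in control libraries. The MnCl2 values lay within the span of the control values, at a log2 fold change of 0.31 (SE 0.55, edgeR adjusted p = 0.918).

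The 3p strands, usually discarded when the hairpin is loaded, were scarce. miR-34c-3p had 11, 11 and 8 counts in MMT libraries, 15, 12 and 9 in MnCl2 libraries, and 10, 7 and 5 in control libraries. As levels these were 9.38, 13.8 and 5.68 CPM in MMT, 20.7, 11.7 and 9.45 CPM in MnCl2, and 5.56, 6.85 and 7.61 CPM in control libraries, so that MnCl2 and control did not overlap while their counts did. The log2 fold change of MnCl2 against control was 1.06 (SE 0.59, 95% interval -0.25 to 2.37, edgeR adjusted p = 0.843), the largest of any member in any of the 3 comparisons. For MMT against control it was 0.51 (SE 0.60, edgeR adjusted p = 1).

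miR-34b-3p had 11, 18 and 19 counts in MMT, 19, 24 and 17 in MnCl2, and 14, 14 and 15 in control libraries. Its log2 fold change was 0.66 for MnCl2 against control (SE 0.52, edgeR adjusted p = 0.843). miR-34a-3p had 12, 16 and 6 counts in MMT, 8, 21 and 9 in MnCl2, and 7, 9 and 15 in control libraries, and for MnCl2 against control its log2 fold change was 0.31 (SE 0.76, edgeR adjusted p = 0.938). The counts of these strands did not grow with the library. Control 1, with the highest total, had 7 counts of miR-34a-3p against 15 in control 3, and 14 of miR-34b-3p against 15.

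Relative to the total, miR-34a-3p and miR-34b-3p were lower in deeper libraries. The total is the divisor of the level, so counts that do not grow with it give a negative r. Between control 1 and control 3 such counts were not particular to the members, since their median ratio was 0.6 over 215 miRNAs at 20 CPM or less. The share of all miRNAs with such an r is not given here. The r of the log2 level with the log2 total was -0.89 for miR-34a-3p (exact permutation p = 0.00179, adjusted over the 8 members 0.01), with rho -0.9 (exact permutation p = 0.00203, adjusted 0.0162). For miR-34b-3p r was -0.87 (exact permutation p = 0.0025, adjusted 0.01) and rho -0.85 (exact permutation p = 0.00607, adjusted 0.0162). For miR-449c-5p r was -0.73 (exact permutation p = 0.0257, adjusted 0.0514) and rho -0.77 (exact permutation p = 0.0214, adjusted 0.0428). For miR-34c-3p r was -0.61 (exact permutation p = 0.0788, adjusted 0.126) and rho -0.70 (exact permutation p = 0.0433, adjusted 0.0692). Without control 1 and control 3, r was -0.77, -0.79, -0.67 and -0.84 for these strands in the order given. For miR-34b-5p, miR-34c-5p and miR-449a-5p r was -0.30, -0.32 and -0.34, with exact permutation p of 0.438, 0.399 and 0.378 (adjusted 0.438 each). Spearman's rho was -0.20, -0.17 and -0.23 for these 3 members, with exact permutation p of 0.613, 0.678 and 0.552 (adjusted 0.678 each).

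**Figure D3:**
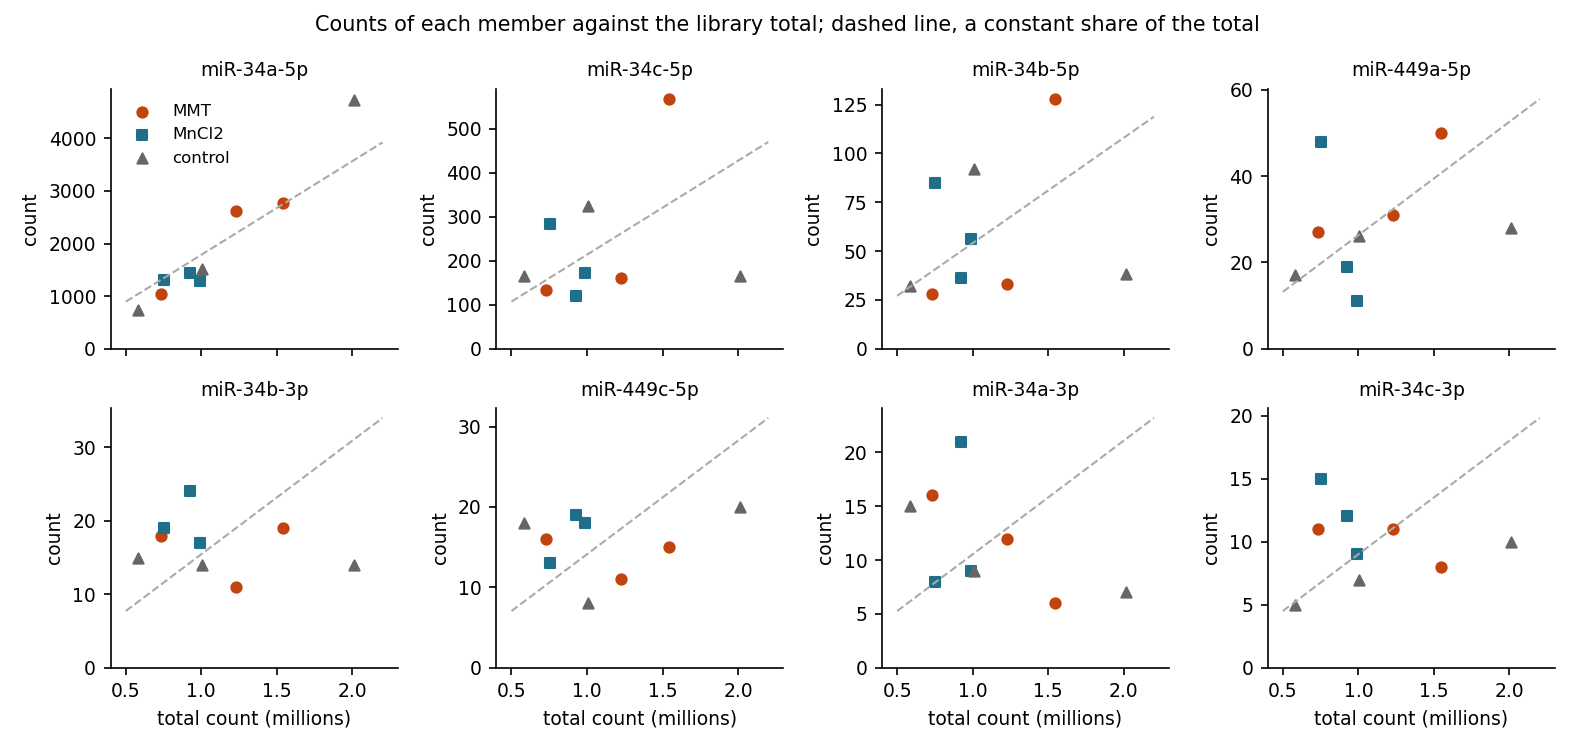
Counts of each member against the total count of the library, 1 point for each of 9 libraries in MMT, MnCl2 and control groups. The dashed line marks a constant share of the total. miR-34a-5p rises with the total, while the points of the 3p strands and miR-449c-5p stay between 5 and 24 counts at every depth.

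The arms of a hairpin can be compared within a library without scaling. The 5p arm made up 98.5% to 99.8% of miR-34a counts in MMT, 98.6% to 99.4% in MnCl2 and 98% to 99.9% in control libraries. For miR-34c it made up 93.6%, 92.3% and 98.6% in MMT libraries, 95%, 90.8% and 95% in MnCl2 libraries, and 94.3%, 97.9% and 97.1% in control libraries. miR-34b was the least one-sided of these hairpins, with 5p shares of 75%, 60.9% and 87.1% in MMT, 81.7%, 60% and 76.7% in MnCl2, and 73.1%, 86.8% and 68.1% in control libraries. These rest on 44 to 147 counts in both arms, and exact Clopper-Pearson 95% intervals ran, for example, from 46.5% to 72.4% in MnCl2 2 and from 80.6% to 92% in MMT 3. Intervals cover counting error only. The arm miR-449a-3p, not among the members, was in the files as well, with 4 to 15 counts a library. The 5p share of miR-449a ran from 53.1% in control 3 to 90.9% in MMT 3, on 18 to 56 counts in both arms, and was not tested. Shares of the 5p arm of miR-34b and miR-34c were highest in MMT 3 and control 2, which were among the libraries high in miR-1298. Control 3 and MnCl2 1, high in miR-1298 as well, had 68.1% and 81.7% for miR-34b and 97.1% and 95% for miR-34c. MnCl2 3, low in miR-1298, had 76.7% and 95%. A relation of these shares to miR-1298 was not tested.

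Between groups the mean 5p share of miR-34b was 74.3% ± 13.1 in MMT, 72.8% ± 11.4 in MnCl2 and 76% ± 9.69 in control libraries (SD, n = 3 each). Exact two-sided permutation tests of the 3 hairpins in 3 comparisons gave p-values of 0.3 to 1, all 1 after adjustment over the 9 tests. With 3 libraries a group the smallest possible p is 0.1.

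The split between both cluster strands was singled out after the values were seen, because the MnCl2 libraries stood apart in it, and is therefore a description. A permutation test of it was run, but its p is not given, since choosing the split by this separation fixed the outcome for MnCl2. How many other pairs of miRNAs separate the groups in this way was not examined. Of the summed counts of miR-34b-5p and miR-34c-5p, miR-34b-5p took 17.1%, 17.5% and 18.4% in MMT libraries, 23%, 23.2% and 24.6% in MnCl2 libraries, and 18.8%, 22.2% and 16.2% in control libraries. The MnCl2 libraries lay above all others and the groups MMT and control overlapped. The means were 17.7% ± 0.676 in MMT, 23.6% ± 0.832 in MnCl2 and 19.1% ± 2.97 in control libraries (SD, n = 3 each). The difference was 4.53 percentage points for MnCl2 against control and -5.94 for MMT against MnCl2. For MMT against control it was -1.40. Single libraries held 155 to 695 counts of both strands, and the exact 95% interval of MnCl2 2 (16.8% to 30.7%) overlapped that of control 3 (11.4% to 22.2%). Since 2 bases separate the strands, a share also depends on how reads were assigned.

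**Figure D4:**
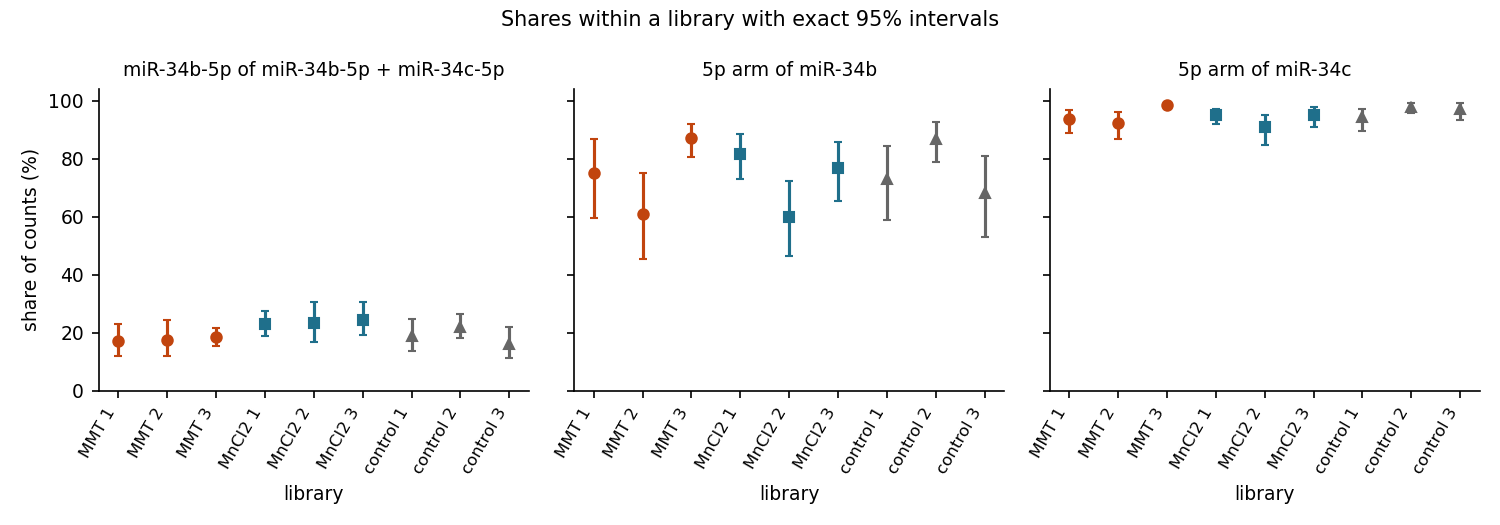
Shares of counts (%) within each of 9 libraries, MMT, MnCl2 and control, with exact 95% intervals. The miR-34b-5p share of the cluster strands lies at 23% to 24.6% in MnCl2 libraries and at 16.2% to 22.2% in the others, and the 5p arm share of miR-34b varies from 60% to 87.1% without separating the groups.

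Over the whole family no member passed the test in any comparison. For MMT against control 0 of 8 members and 0 of 1113 entries were called (0% of all entries), with 0 members and 24 entries (2.16%) at an unadjusted p under 0.05 in edgeR, and DESeq2 called 0 as well. The median log2 fold change was 0.07 over the members, 0.04 over 615 tested miRNAs and 0.01 over all entries. In 1 of 8 members, miR-449a-5p, all MMT libraries lay above all control libraries, as they did in 1.8% of all entries and 2.28% of miRNAs. No member lay wholly below control, where 2.79% of entries and 1.63% of miRNAs did. For MnCl2 against control 0 of 8 members and 0 of 1113 entries were called (0%), with 0 members and 51 entries (4.58%) at an unadjusted p under 0.05 in edgeR, and DESeq2 called 0 too. The median was 0.36 over the members, against 0.23 over miRNAs and 0.06 over all entries. Values above 0 were found in 7 of 8 members and in 476 of 615 miRNAs. In 1 of 8 members, miR-34c-3p, the MnCl2 libraries lay above the control libraries, as in 4.76% of all entries and 7.8% of miRNAs. No member lay wholly below control, where 4.94% of entries and 0.813% of miRNAs did. For MMT against MnCl2 0 of 8 members and 0 of 1113 entries were called (0%), with 0 members and 22 entries (1.98%) at an unadjusted p under 0.05 in edgeR, and DESeq2 called 0. No member separated MMT from MnCl2 libraries, while 4.31% of entries (1.14% of miRNAs) lay wholly higher in MMT and 4.76% of entries (6.83% of miRNAs) wholly lower. The median was -0.36 over the members, against -0.19 over miRNAs. The first 2 comparisons share the control libraries. With miRNAs scaled alone, the median of all miRNAs moved to -0.10 for MMT against control and -0.05 for MnCl2 against control, and the members' medians to -0.07 and 0.08.

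**Figure D5:**
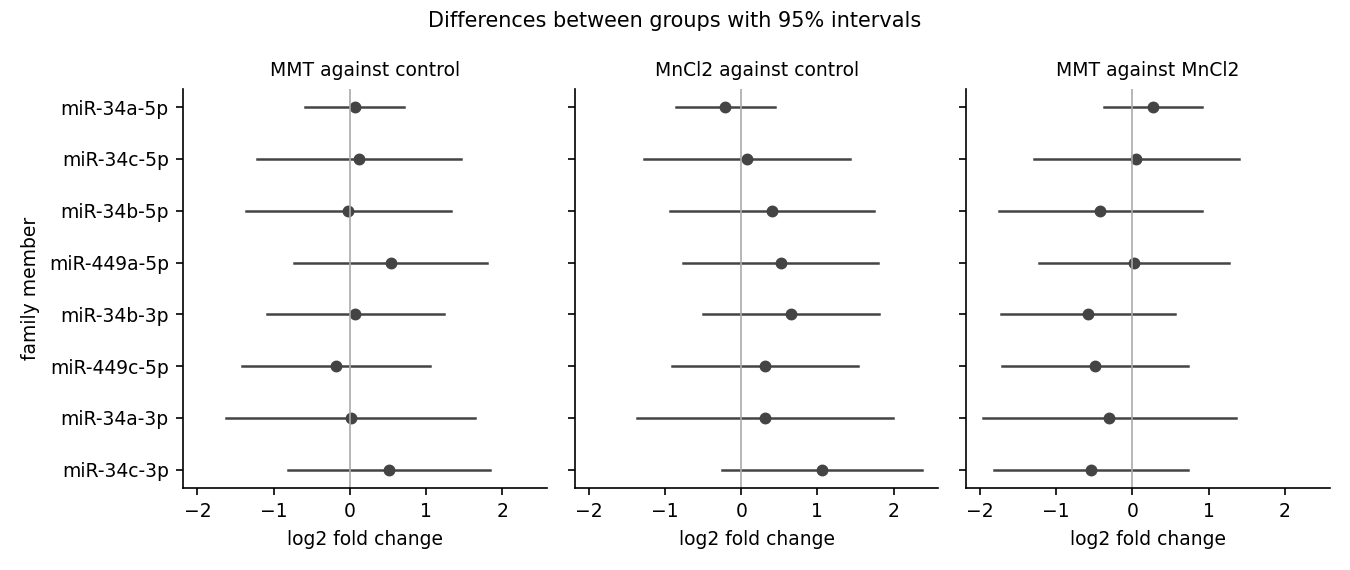
Log2 fold changes of the 8 members with 95% intervals from the edgeR fit, for MMT against control, MnCl2 against control and MMT against MnCl2 (n = 3 each). Every interval includes 0, and the widths are smallest for miR-34a-5p.

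Other p53-linked miRNAs, a list of 8 outside the family, gave 0 called in either direction in each of the 3 comparisons. Over all tested miRNAs the median log2 fold change was 0.04 for MMT against control, 0.23 for MnCl2 against control and -0.19 for MMT against MnCl2. For these 8 miRNAs it was 0.07, 0.22 and -0.04 in that order. The most abundant of them, miR-16-5p, which restrains cell cycle genes, was at 13940 CPM, 11321 CPM and 12883 CPM in MMT libraries, at 9919, 9475 and 11667 CPM in MnCl2 libraries, and at 15777, 10084 and 10033 CPM in control libraries. MnCl2 and control overlapped, as did MMT and control. miR-143-3p, a smooth-muscle miRNA whose processing p53 promotes, was at 8675, 7235 and 8245 CPM in MMT, at 17934, 7239 and 7929 CPM in MnCl2, and at 9215, 7364 and 6624 CPM in control libraries. The high value was that of MnCl2 1 alone. miR-143-3p and miR-145-5p are also on the list of vascular markers. Their log2 fold changes for MnCl2 against control, 0.51 and 0.52, were the largest of the p53-linked list.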

How the data were processed

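Small RNAs of rat striatum were measured in 9 libraries. The labels' protocols name TRIzol extraction, a gel cut of short RNAs and the QIAseq miRNA kit. Trimmomatic trimming and the build rn6 stand in the submitters' processing notes. Not given in the sources used here: aligner, mismatches, strand, use of molecular identifiers. Without identifiers, counts include PCR copies. The authors deposited raw counts per entry, without normalization.

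Groups came from sample titles. Members and lists were chosen with earlier results of these data known. The counts of all 9 libraries entered 1 edgeR fit (version 4.0.16, R 4.3.3; TMM scaling, filterByExpr, two-sided robust quasi-likelihood test), and p-values were adjusted by Benjamini-Hochberg at 0.05 over 1113 entries. The 646 others held 0.0854% of counts. Standard errors and intervals were derived from the quasi-likelihood F. Likeness was Pearson's r of log2 CPM (prior count 2), for members at 20 CPM or more, with the 3 closest miRNAs named. From lists, members past the test or the 2 most abundant were named. The script was tested on simulated data: over 1113 entries in MMT against control it recovered 49.8% of 2-fold and 93.1% of 4-fold changes, with 16 false among 726 calls. The simulation gave all entries 1 common biological coefficient of variation (0.279) and means proportional to the library total. Recovery for members of larger spread, such as miR-34c-5p, was not simulated, so these percentages do not apply to them. Alternatives were DESeq2 1.42.0, RLE scaling, miRNAs alone, no filter, the total count as a covariate, the replicate number as a block and each library left out. The choroid plexus covariate was added after the data were seen. All 36 pairs of libraries differed beyond counting noise (chi-square per degree of freedom of at least 6.44). Python 3.11.15 with scipy 1.17.1 and pandas 2.3.3 was used elsewhere.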

Additional observations from a re-analysis of the deposited data

How the results depend on the processing

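No member passed an adjusted p of 0.05 under any of the 7 other settings (168 values, lowest adjusted p 0.545) or with any of the 9 libraries left out (216 values, lowest 0.421). Over all entries, calls stayed at 0 in each comparison and setting except that without a filter on low counts MnCl2 against control gave 1 call, miR-200a-3p. Of 24 member values, 8 kept their direction throughout, among them miR-34c-3p in all 3 comparisons and miR-449a-5p for MMT against control, though their sizes moved with 1 library left out. The cause of the reversals was not tested.

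For MMT against control, miRNAs scaled alone gave log2 values of -0.0896 for miR-34a-5p, -0.11 for miR-34a-3p, -0.0529 for miR-34b-3p and -0.0193 for miR-34c-5p. miR-34b-5p turned to 0.0063 with RLE scaling, 0.0226 without the filter, 0.12 with the total count as covariate and 0.0901 with the choroid plexus covariate, which put miR-34a-3p at -0.22. For MnCl2 against control, miR-34a-5p was 0.0607 with the total count as covariate and miR-34c-5p -0.24 with miRNAs alone. For MMT against MnCl2, miR-34c-5p was -0.0081 with the choroid plexus covariate and -0.0909 with the replicate block. Correlations of same-numbered libraries, as deviations from group means, ran from -0.666 to 0.493. Without differently numbered pairs beside them, these cannot show whether the numbers pair libraries. The replicate block gave 0 calls in each comparison.

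With 1 library left out, MMT against control ran from -0.17 to 0.50 for miR-34a-5p, -0.59 to 0.86 for miR-34a-3p, -0.74 to 0.64 for miR-34b-5p, -0.28 to 0.51 for miR-34b-3p, -0.53 to 0.53 for miR-34c-5p and -0.54 to 0.45 for miR-449c-5p. MnCl2 against control ran from -0.52 to 0.22 for miR-34a-5p, -0.14 to 1.10 for miR-34a-3p, -0.17 to 1.01 for miR-34b-5p, -0.55 to 0.42 for miR-34c-5p, -0.55 to 0.92 for miR-449a-5p and -0.0405 to 0.87 for miR-449c-5p. MMT against MnCl2 ran from -0.87 to 0.13 for miR-34a-3p, -1.15 to 0.15 for miR-34b-5p, -0.60 to 0.68 for miR-34c-5p and -0.40 to 1.08 for miR-449a-5p. Of the values that kept their direction, MMT against control ran from 0.20 to 0.79 for miR-34c-3p and 0.32 to 0.67 for miR-449a-5p, and MnCl2 against control from 0.33 to 1.02 for miR-34b-3p and 0.67 to 1.27 for miR-34c-3p. MMT against MnCl2 ran from 0.11 to 0.54 for miR-34a-5p, -0.88 to -0.33 for miR-34b-3p, -0.80 to -0.16 for miR-34c-3p and -0.80 to -0.29 for miR-449c-5p. Without control 1, miR-34a-5p in MMT against control stood at 0.50 (edgeR unadjusted p = 0.0455, adjusted p = 0.916). Without MnCl2 1, miR-449a-5p in MMT against MnCl2 stood at 1.08 (edgeR unadjusted p = 0.0406, adjusted p = 0.992).

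In percentage points, the 5p share of miR-34a differed by -0.364 to 0.571 for MMT against control, -0.547 to 0.371 for MnCl2 against control and -0.082 to 0.579 for MMT against MnCl2. For miR-34b the ranges were -8.05 to 5.05, -7.63 to 3.24 and -4.91 to 8.22 in that order. For miR-34c they were -3.46 to -0.309, -3.85 to -1.39 and -0.679 to 2.47. The share of miR-34b-5p in the cluster strands differed by -2.82 to 0.144, 3.12 to 6.08 and -6.31 to -5.46. This split was singled out because all MnCl2 libraries lay above all others. Leaving out a library therefore could not reverse the sign in either comparison of MnCl2, and these ranges are no test of it.

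The 3p strands and miR-449c-5p had 5 to 24 counts a library, which limits their precision, and with 3 libraries a group the intervals of miR-34b-5p and miR-34c-5p span more than 2 log2 units.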
